A study of Mus musculus with 11 samples.

Results

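The genes described here are 10 genes by which resident macrophages of the heart are recognised: Timd4, Lyve1, Folr2, Mrc1, Cd163, Cbr2, F13a1, Csf1r, Mertk and Adgre1. They were taken by symbol from the 55421 genes of the count table, and all 10 were found and passed the filter on low counts in every comparison. The RNA came from hearts of 11 mice, all female, of the C57BL/6J strain and 8 weeks of age, taken on day 3 after the operation. A myocardial infarction (MI) had been set in 8 of them by a permanent tie around the LAD, the coronary artery that feeds the front of the left ventricle. Of these, 4 received 100 mg/kg of GI254023X, which blocks the metalloprotease ADAM10 and is called A10i below, and 4 received its solvent DMSO, from pumps under the skin. The other 3 mice were sham-operated and received DMSO. The infarcted hearts gave tissue of the infarct and its border zone and the sham hearts gave healthy tissue, so that the infarct and the place of sampling cannot be told apart in a comparison with sham mice. No group of sham mice with A10i was analysed here.

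Resident macrophages settle in the heart before birth and renew themselves there, largely without input from blood monocytes. They take up dead cells and debris, and many of them carry TIMD4, LYVE1, FOLR2 and the scavenger receptors MRC1 and CD163. After a coronary artery is closed, resident cells of the infarct die and monocytes from the blood enter in large numbers, and these become macrophages that also express Csf1r, Mertk and Adgre1 and can express Mrc1 and F13a1. The 10 genes thus hold both narrow markers of resident cells and genes that macrophages of either origin share. TIMD4 and MERTK are receptors by which apoptotic cells are recognised and engulfed, MERTK through the bridging proteins GAS6 and PROS1. LYVE1 binds hyaluronan, MRC1 binds mannose-bearing glycoproteins, CD163 takes up haemoglobin bound to haptoglobin, and FOLR2 binds folate. CSF1R is the receptor of the growth factors CSF1 and IL-34, F13a1 encodes the catalytic subunit of coagulation factor XIII, Cbr2 a carbonyl reductase, and Adgre1 the surface protein F4/80. ADAM17 and ADAM10 are sheddases, proteases that cut proteins off the cell surface.

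The promoters are shown for 4 genes whose estimates differed in the direction or in the group in which they stood out: Timd4 and Cd163, with estimates below the sham level in DMSO mice, Folr2, which stood out with A10i, and F13a1, which was higher in both infarcted groups. RefSeq promoter windows (GRCm38.p6, the assembly also called mm10) were at hand for 7 of the 10 genes, 9 windows in all because Folr2 and F13a1 have more than 1 start. Those of Mrc1 and Cbr2 are not shown, because their RefSeq starts lie farther inside the gene as positioned below. The Folr2 window that is shown also enters its gene, from 101857191 to the gene end at 101857194. Each line gives the 250 bases before the annotated start, read 5′ to 3′ on the strand of the gene, and for Folr2 and F13a1 the start farthest upstream. Capitals mark 2 short motifs on either strand, GAGGAA, the core of sites of the macrophage factor PU.1, with its complement TTCCTC, and TGCTGA, the half-site of MAF factors, with its complement TCAGCA.
Timd4, chr11:46810549-46810798, plus strand: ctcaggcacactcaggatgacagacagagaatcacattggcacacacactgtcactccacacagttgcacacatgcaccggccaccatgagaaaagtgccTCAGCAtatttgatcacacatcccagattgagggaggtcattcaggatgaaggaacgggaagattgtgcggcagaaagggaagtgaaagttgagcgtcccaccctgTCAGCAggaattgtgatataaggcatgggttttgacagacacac
Folr2, chr7:101857191-101857440, minus strand: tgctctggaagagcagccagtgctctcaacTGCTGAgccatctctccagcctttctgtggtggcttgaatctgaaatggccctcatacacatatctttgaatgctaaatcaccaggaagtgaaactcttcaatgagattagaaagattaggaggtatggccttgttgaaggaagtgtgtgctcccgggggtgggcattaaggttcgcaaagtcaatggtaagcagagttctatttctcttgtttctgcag
Cd163, chr6:124304401-124304650, plus strand: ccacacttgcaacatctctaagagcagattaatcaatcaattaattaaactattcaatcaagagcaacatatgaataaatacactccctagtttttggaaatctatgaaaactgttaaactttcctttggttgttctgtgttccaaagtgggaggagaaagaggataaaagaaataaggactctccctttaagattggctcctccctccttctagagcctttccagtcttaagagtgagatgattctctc
F13a1, chr13:37050245-37050494, minus strand: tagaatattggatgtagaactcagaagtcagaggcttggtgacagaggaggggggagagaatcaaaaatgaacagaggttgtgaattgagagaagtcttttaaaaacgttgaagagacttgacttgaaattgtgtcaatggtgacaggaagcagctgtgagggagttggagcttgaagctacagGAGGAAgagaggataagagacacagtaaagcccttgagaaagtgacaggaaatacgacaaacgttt
GAGGAA was found in 3 of the 9 windows, those of Mrc1, Cbr2 and the upstream start of F13a1, and in 23.3% of the 32851 windows of this length in the genome. The windows of Mrc1 (up to 14229413) and Cbr2 (from 120732022, minus strand) run into the genes as positioned below. The downstream windows of Folr2 (101845332 to 101845581) and F13a1 (37049214 to 37049463) lie wholly inside their genes. The match of Cbr2, 79 bases before its RefSeq start, lies inside the gene so positioned. TGCTGA was found in 3 of the 9 windows, both of Folr2 and that of Timd4, and in 16.1% of all windows. TTGCNNAA, a core of C/EBP sites, was in 0 of the 9 and in 9.56% of all. The motifs do not overlap each other in the windows shown, and a match describes letters only, not a bound factor.

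The total count per library lay between 21702623 and 29511768, and mitochondrial genes took 14.8 to 22.2% of it. Levels below are CPM, counts relative to the library total scaled with TMM factors, unless given per length. Every gene except Timd4 had 198 counts or more in every library. Timd4 had 22 to 64 counts, so its values carry the widest counting error. In bulk tissue fewer cells of a type and less RNA per cell cannot be told apart. Libraries A129 (DMSO) and A116 (A10i) held the highest summed levels of 8 general macrophage genes (605 and 749 CPM, against 267 to 424 in the other infarcted libraries) and of 10 genes of recruited monocytes (2253 and 2038 CPM, against 676 to 1037). The largest parts of the monocyte sum were Fn1 (78.3 to 89.8 CPM in sham, up to 997 in DMSO and 1117 in A10i mice) and Spp1 (up to 539 and 518 CPM). Within their groups A129 and A116 also held the highest sums of fibroblast genes (6279 and 8790 CPM) and the lowest of heart muscle genes (36177 and 44050 CPM). The part of these differences between libraries in the values of the 10 genes was not tested.

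Per length, in TPM, which divide by the exon length of the gene before scaling to the library, Cbr2 was the highest of the 10 genes in all 3 groups, at 33.1 ± 2.55 in sham (SD, n = 3), 47.9 ± 8.36 in DMSO (SD, n = 4) and 62.3 ± 7.53 in A10i mice (SD, n = 4). Timd4 was the lowest, at 2.24 ± 0.378, 1.60 ± 0.481 and 2.05 ± 0.554 TPM in the same order, and Mertk was next to it in each group, with ranges apart from Timd4. In sham mice Lyve1 (26.3 ± 4.65 TPM), F13a1 (21.8 ± 1.58 TPM), Cd163 (20.4 ± 3.46 TPM) and Csf1r (18.5 ± 0.379 TPM) followed Cbr2. From Cbr2 down to Csf1r, the ranges of neighbours in this order overlapped, and Csf1r lay apart from Mrc1 (14.4 ± 0.597 TPM) below it. Folr2 (14.2 ± 2.20 TPM) overlapped Mrc1, and Adgre1 (10.1 ± 0.651 TPM) lay apart from Folr2 above it and from Mertk (7.81 ± 0.310 TPM) below it. In the infarcted hearts the order was looser, and neighbours overlapped down to Mertk in DMSO mice and down to Folr2 in A10i mice. Cd163 held the fourth place in sham, the eighth in DMSO and the seventh in A10i mice, and Mrc1 moved from the sixth place in sham to the fourth in both infarcted groups.

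**Figure D1:**
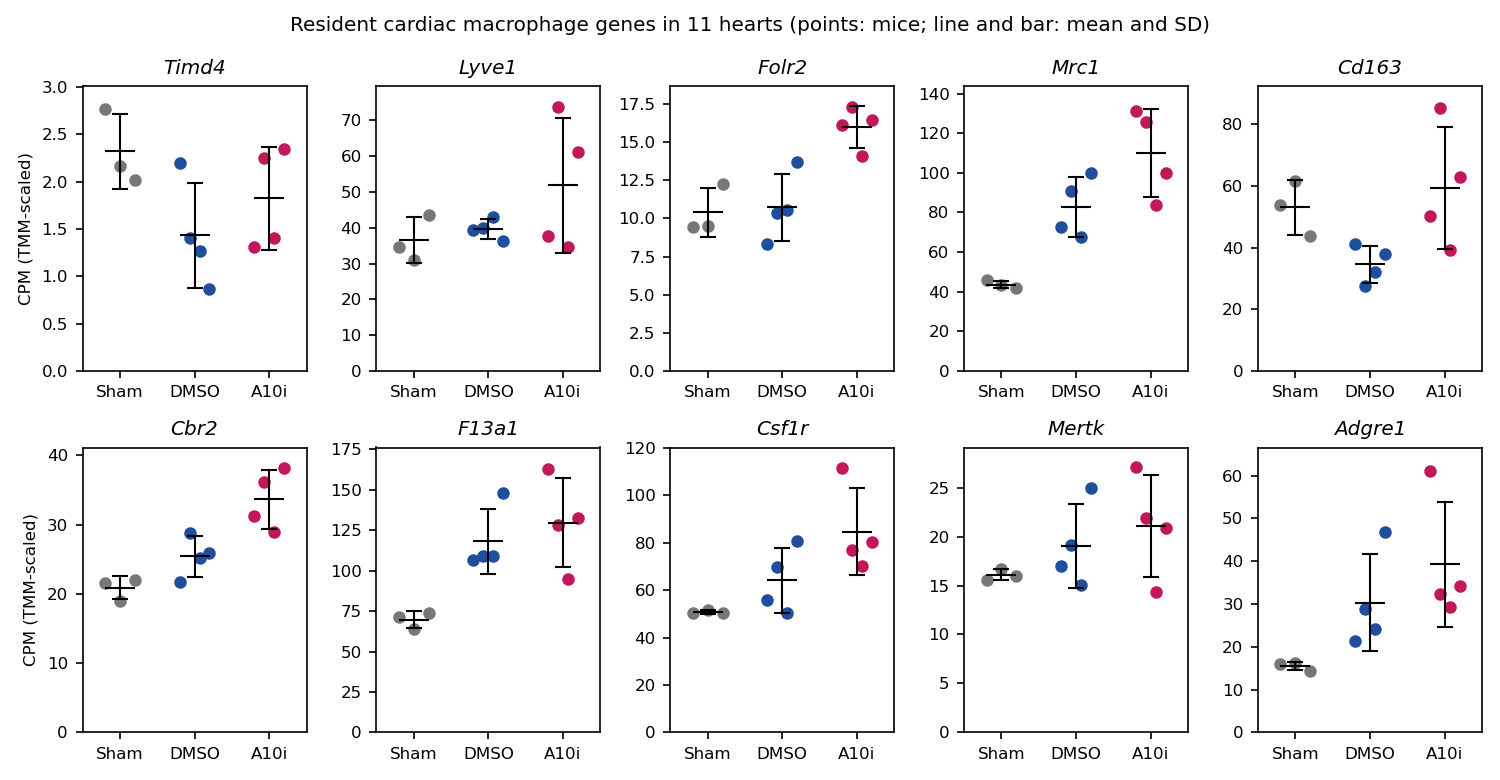
CPM (vertical axes, from 0) of each of the 10 genes in the 3 sham, 4 DMSO and 4 A10i mice; points are mice and the line and bar are the mean and SD. Mrc1, F13a1 and Adgre1 lie above the sham mice in all 8 infarcted mice. Folr2 and Cbr2 separate A10i from DMSO mice by a small margin in CPM, though not in TPM.

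The comparison of DMSO with sham mice asks how the 10 genes stood in the infarcted tissue without the inhibitor. Mrc1 and F13a1 rose, and no gene fell at the threshold used, an adjusted p below 0.01 in the quasi-likelihood test of edgeR, with Benjamini-Hochberg adjustment over all 17117 genes tested. These 2 of 10 genes stand against 12.9% of all genes called higher and 9.6% called lower. The median log2 fold change of the 10 genes was 0.26, beside 0.0021 over all genes tested. The genes did not move as a block: 8 estimates were above 0 (50.2% of all genes) and 2 below, from 0.96 for Adgre1 to -0.70 for Timd4. Had only library size been used for scaling, the split of all calls would be 3330 higher and 708 lower in place of 2215 and 1643, with a median log2 fold change of 0.21 over all genes, and the same 2 of the 10 genes were called.

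Mrc1 (ENSMUSG00000026712, chromosome 2, 14229392 to 14332057), the mannose receptor, had 45.8, 43.2 and 41.96 CPM in the sham mice and 72.6, 91.0, 67.4 and 99.7 CPM in the DMSO mice A105, A127, A128 and A129. Every DMSO mouse lay above every sham mouse, with a log2 fold change of 0.92 ± 0.14 (SE, adjusted p = 0.00094 by edgeR). F13a1 (ENSMUSG00000039109, chromosome 13, 36867178 to 37050244) had 71.2, 63.9 and 74.0 CPM in sham and 107, 109, 109 and 148 CPM in DMSO mice. It also separated the groups, with A129 above the other 3 DMSO mice, and it had a log2 fold change of 0.76 ± 0.13 (SE, adjusted p = 0.0018 by edgeR). Without sham mouse S1 or S2 the adjusted p of F13a1 was 0.0110 or 0.0139, whereas Mrc1 stayed past the threshold with each mouse left out in turn.

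Cd163 (ENSMUSG00000008845, chromosome 6, 124304656 to 124330527), the haemoglobin scavenger receptor, lay the other way. It had 54.0, 61.5 and 43.7 CPM in sham and 41.0, 27.5, 31.9 and 37.9 CPM in DMSO mice, so that every DMSO mouse was below every sham mouse. Its log2 fold change of -0.62 (standard error 0.15) missed the threshold with an edgeR adjusted p of 0.0110, and over the alternatives this p ran from 0.0013 in DESeq2 to 0.050 in the fit of all 11 libraries. It was below 0.01 in 3 of them, DESeq2, without a filter on low counts (0.0044) and without DMSO mouse A105 (0.0062). Scaled by library size only, the log2 fold change of Cd163 was -0.42. In TPM its groups overlapped, with A129 (19.2 TPM) above sham mouse S3 (16.9 TPM). Timd4 (ENSMUSG00000055546, chromosome 11, 46810800 to 46844332), the receptor for apoptotic cells that is a narrow marker of the self-renewing cells, had 2.77, 2.17 and 2.02 CPM in sham and 2.19, 1.41, 1.26 and 0.865 CPM in DMSO mice. Mouse A105 lay within the sham range and the other 3 DMSO mice lay below it. Its log2 fold change was -0.70 with a 95% confidence interval of -1.36 to -0.04 and an edgeR adjusted p of 0.083. Adgre1 (ENSMUSG00000004730, chromosome 17, 57358691 to 57483527), which macrophages of either origin express, had 15.9, 16.3 and 14.4 CPM in sham and 21.4, 28.9, 24.2 and 46.8 CPM in DMSO mice. All DMSO mice were higher than all sham mice, and the estimate of 0.96 (standard error 0.25) had an edgeR adjusted p of 0.0153. Over the alternatives this p ran from 0.00036 in DESeq2 to 0.088 without a filter on low counts. It was below 0.01 also without A129 (0.0020, at a smaller log2 fold change of 0.68) and without A105 (0.0059), and it was 0.053, 0.047 and 0.064 without S1, S2 and S3. With DESeq2 4 of the 10 genes passed, Mrc1, F13a1 and Adgre1 higher and Cd163 lower, against 9.28% and 7.02% of all genes. In CPM, groups were apart upward for 3 and downward for 1 of the 10 genes, against 25.2% and 23.5% of all genes tested.

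Of the remaining genes, Lyve1 (ENSMUSG00000030787, chromosome 7, 110850607 to 110863239) had a log2 fold change of 0.12 (95% confidence interval -0.15 to 0.38) and Folr2 (ENSMUSG00000032725, chromosome 7, 101839988 to 101857194) one of 0.04 (-0.34 to 0.43). The sign of Folr2 turned without S1, S2 or A129, to values down to -0.094. The intervals of both leave out a change of 2-fold in either direction. Cbr2 (ENSMUSG00000025150, chromosome 11, 120729489 to 120732114) had a log2 fold change of 0.28, Csf1r (ENSMUSG00000024621, chromosome 18, 61100598 to 61132149) of 0.33 and Mertk (ENSMUSG00000014361, chromosome 2, 128698956 to 128802894) of 0.24, with groups that overlapped and edgeR adjusted p-values of 0.067, 0.103 and 0.259.

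**Figure D2:**
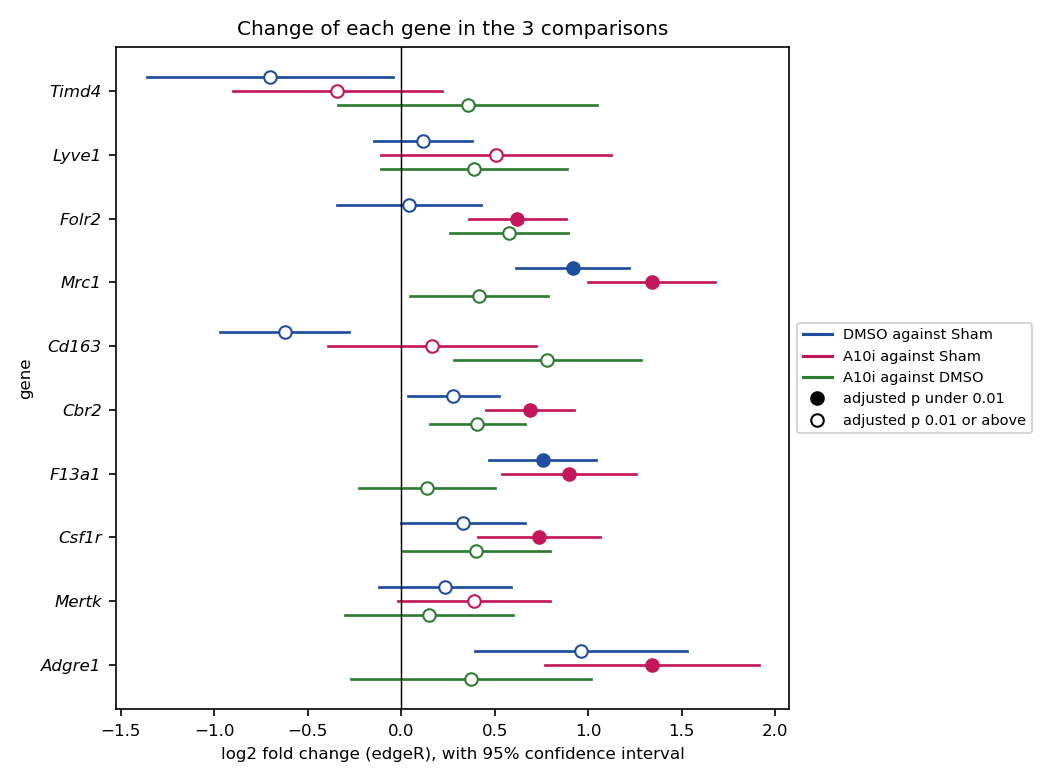
Log2 fold change of each gene from edgeR (horizontal axis; vertical axis, genes) in the 3 comparisons, with 95% confidence intervals; filled points passed an adjusted p of 0.01. All 10 green points, A10i against DMSO, lie above 0 and none is filled, and Timd4 and Cd163 are the 2 genes below 0 in DMSO against sham mice.

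In A10i against sham mice 6 of the 10 genes rose, and 0 fell, in the same edgeR test over 16971 genes, of which 13.7% were called higher and 9.11% lower. They were Mrc1, Adgre1, F13a1, Csf1r, Cbr2 and Folr2, and in all 6 every A10i mouse lay above every sham mouse, as did 24.8% of all genes tested. The median log2 fold change of the 10 genes was 0.66, beside -0.0054 over all genes. This comparison shares the 3 sham mice with the one before it, so that they are not independent. Scaled by library size only, the split of all calls would be 3436 higher and 577 lower in place of 2333 and 1546, with a median of 0.18 over all genes, and 6 of the 10 genes were called.

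Among the uptake receptors, Mrc1 had 131, 126, 84.0 and 99.8 CPM in the A10i mice A116, A117, A119 and A120, with a log2 fold change over sham of 1.34 ± 0.15 (SE, adjusted p = 0.00040 by edgeR). Folr2, the folate receptor, had 9.44, 9.50 and 12.3 CPM in sham and 16.1, 17.3, 14.1 and 16.4 CPM in A10i mice. All 4 A10i mice were above the sham mice and close to one another, which gave a log2 fold change of 0.62 ± 0.12 (SE, adjusted p = 0.0027 by edgeR). Cbr2, the carbonyl reductase, had 21.6, 19.0 and 22.05 CPM in sham and 31.2, 36.1, 28.9 and 38.2 CPM in A10i mice. It too was higher in every A10i mouse, with a log2 fold change of 0.69 ± 0.11 (SE, adjusted p = 0.0010 by edgeR).

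Of the genes that macrophages from monocytes also express or can express, Csf1r had 50.3, 51.8 and 50.4 CPM in sham and 111, 76.9, 70.1 and 80.1 CPM in A10i mice, with a log2 fold change of 0.74 ± 0.14 (SE, adjusted p = 0.0042 by edgeR). Adgre1 had 61.1, 32.4, 29.4 and 34.1 CPM in A10i mice, with a log2 fold change of 1.34 ± 0.25 (SE, adjusted p = 0.0038 by edgeR). In both genes A116 stood well above the other 3 A10i mice. F13a1 had 163, 128.4, 95.1 and 132 CPM in A10i mice, with a log2 fold change of 0.90 ± 0.16 (SE, adjusted p = 0.0027 by edgeR).

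The other 4 genes did not pass. Lyve1, the hyaluronan receptor, had 34.7, 31.1 and 43.7 CPM in sham and 37.8, 73.6, 34.7 and 61.1 CPM in A10i mice. A117 and A120 were above all sham mice and A116 and A119 within their range, and the log2 fold change was 0.51 (95% confidence interval -0.11 to 1.12). Cd163 had 50.3, 85.1, 39.2 and 62.9 CPM in A10i mice, on both sides of the sham values, and an estimate of 0.16 (-0.39 to 0.72) that turned to -0.060 without A117. Timd4 had 1.31, 2.24, 1.40 and 2.34 CPM in A10i mice, 2 of them below and 2 within the range of the sham mice, and a log2 fold change of -0.34 (-0.90 to 0.22). Mertk, the receptor of GAS6 and PROS1, had 14.4 to 27.1 CPM in A10i and 15.6 to 16.7 CPM in sham mice, and its estimate on the log2 scale was 0.39 (edgeR adjusted p = 0.115), or 0.54 without A119 (adjusted p = 0.0044, the lowest over the alternatives, of which the highest was 0.245 without S1). Leaving out a sham mouse moved the count of 6 most. It was 2 without S1 or S2 and 3 without S3, and Mrc1 and Cbr2 stayed past the threshold in all 3 fits, whereas the adjusted p-values of Csf1r, Adgre1 and F13a1 went up to 0.0104 to 0.0209 there. Folr2 was at 0.0182 without S1 or S2.

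The comparison of A10i with DMSO mice asks whether the inhibitor was associated with another level of these genes in infarcted tissue. In all 10 genes the estimate was above 0, from 0.14 for F13a1 to 0.78 for Cd163, with a median of 0.40, beside 50.7% of all 16792 genes tested and a median of 0.0034. No member passed: 0 of 10 genes were called by edgeR on these libraries, by DESeq2 and by edgeR on all 11 libraries, in which 0%, 0.335% and 0.0114% of all genes were called higher. At an unadjusted p under 0.05, 5 of the 10 genes were higher (7.1% of all genes), namely Cd163, Folr2, Mrc1, Cbr2 and Csf1r. The 10 genes are not 10 independent observations, since they share cells and libraries.

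Cd163 had the widest difference, a log2 fold change of 0.78 (95% confidence interval 0.28 to 1.28, edgeR adjusted p = 0.179). Over the alternatives its adjusted p ran from 0.0337 in DESeq2 to 0.420 without A120. The groups overlapped, because A119 (39.2 CPM) lay below A105 (41.0 CPM). Folr2 came next, with a log2 fold change of 0.58 (0.26 to 0.89, edgeR adjusted p = 0.132, from 0.0198 in DESeq2 to 0.341 without A120). Its DMSO values were 8.35, 10.3, 10.5 and 13.7 CPM, and the lowest A10i value, 14.1 CPM, was just above the highest of them. Cbr2 had 21.7, 28.8, 25.2 and 25.9 CPM in DMSO mice, and its lowest A10i value, 28.9 CPM, was likewise just above the highest DMSO value, at a log2 fold change of 0.41 (0.15 to 0.66, edgeR adjusted p = 0.165). Folr2 and Cbr2 were the 2 of 10 genes whose groups did not overlap upward in CPM, against 4.03% of all genes. In TPM the groups of both genes overlapped. The lowest A10i values were 21.5 TPM for Folr2 and 51.5 TPM for Cbr2, below the highest DMSO values of 24.4 and 54.2 TPM.

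For Mrc1 the log2 fold change was 0.42 (0.05 to 0.79). Csf1r had 56.0, 69.6, 50.4 and 80.7 CPM in DMSO mice and a log2 fold change of 0.40 (0.01 to 0.79). Both overlapped between the groups. Lyve1 (0.39), Adgre1 (0.37) and Timd4 (0.36) had intervals of -0.11 to 0.89, -0.27 to 1.02 and -0.34 to 1.05. The intervals of Adgre1 and Timd4 thus hold values from a modest decrease to about a doubling, and that of Lyve1 ends below a doubling. F13a1 (0.14, -0.23 to 0.50) and Mertk (0.15, -0.30 to 0.60) had intervals that leave out a doubling, as did Folr2, Cbr2, Mrc1 and Csf1r. All 10 estimates stayed above 0 in each of the 8 fits that left out 1 mouse, in which the lowest were 0.01 for Mertk and 0.01 for F13a1.

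**Figure D3:**
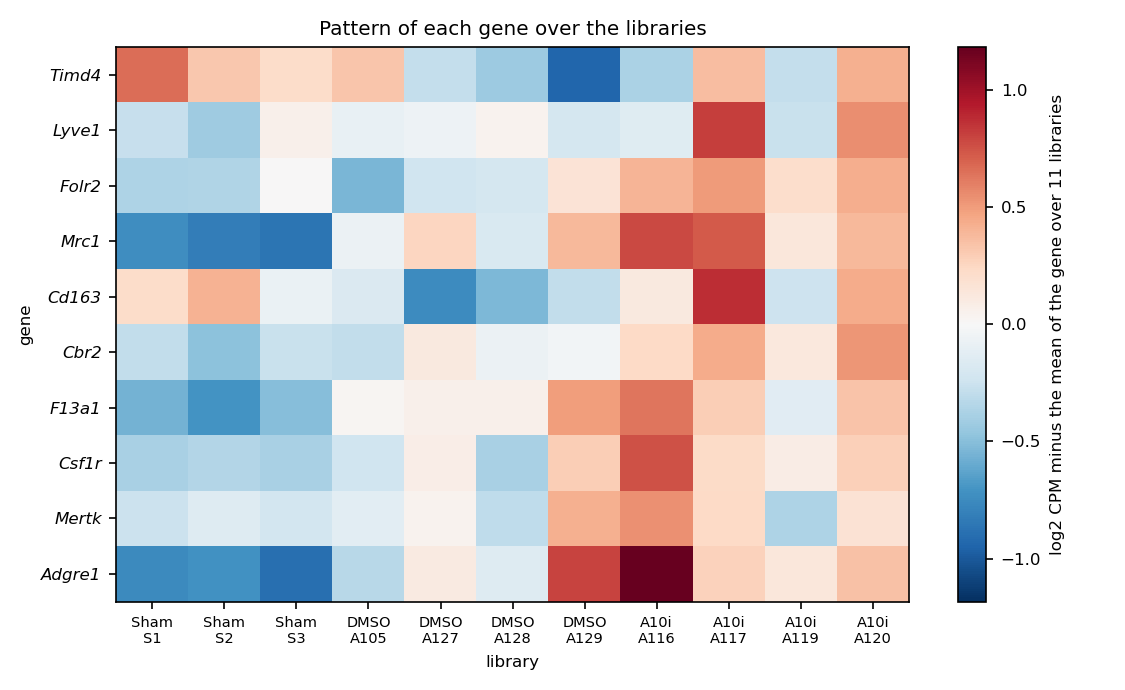
Log2 CPM of each gene (rows) in each of the 11 libraries (columns) minus the mean of the gene over the libraries, in red above and in blue below it. Adgre1 and Csf1r are reddest in A116, Lyve1 and Cd163 in A117, and Timd4 is bluest in A129.

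The infarcted mice did not share 1 order over the 10 genes. A116 was the highest of the 8 infarcted mice for 5 genes, Mrc1, F13a1, Csf1r, Mertk and Adgre1, all of which macrophages that come from monocytes can also express. A117 was the highest for Lyve1, Folr2 and Cd163, and A120 for Timd4 and Cbr2. A119 was the lowest A10i mouse for 9 genes, all except Timd4, and A129 the highest DMSO mouse for 6 genes and the lowest for Timd4 and Lyve1. By the root mean square difference of centred log2 CPM over the 11 libraries, the genes nearest to Mrc1 were Pnp (0.134), C1qc (0.142) and C1qa (0.151), the latter pair encoding complement C1q of macrophages. The nearest to Csf1r were Ctsh (0.0774), Slc29a3 (0.0928) and Npc2 (0.107), which encode lysosomal proteins, and to Adgre1 Ctsc (0.120), Mrc2 (0.134) and Gna15 (0.134). For F13a1 they were Anxa3 (0.0687), Layn (0.0999) and Twf1 (0.104), for Mertk Cd38 (0.119), Lfng (0.120) and Atl3 (0.129), and for Cbr2 Dpt (0.113), Shc2 (0.115) and Rnase4 (0.121). Folr2 was nearest to Smim1 (0.135), Arsb (0.142) and Anks6 (0.142), and Lyve1 to Amigo2 (0.145), Gpm6a (0.162) and Gm20186 (0.179). For Timd4 (Timp4, 1700019D03Rik and Gabrr2, 0.181 to 0.198) and Cd163 (Neu3, Bmf and Susd5, 0.229 to 0.267) no gene came as near as for the others.

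The 10 genes can also be read against macrophage genes in the same library. The 8 general macrophage genes summed to 120 to 132 CPM in sham, 267 to 605 CPM in DMSO and 346 to 749 CPM in A10i mice, and the 10 genes to 315 to 321, 378 to 515 and 411 to 630 CPM. Of the 8, 7 rose in DMSO and 8 in A10i against sham mice, with Fcgr1 (log2 fold change 2.69 and 2.74) the highest in both and median log2 fold changes of 2.06 and 2.56. The highest 2 and lowest 2 that passed were Fcgr1, Cd68, Lgmn and Ms4a7 in DMSO (2.69, 2.35, 1.18 and 1.72) and Fcgr1, Mpeg1, Lgmn and Aif1 in A10i mice (2.74, 2.65, 1.29 and 1.40). When each library was scaled to these 8 genes in place of TMM, all 10 genes had negative log2 fold changes against sham, from -2.40 to -0.90 in DMSO and from -2.41 to -0.82 in A10i mice. At the threshold 8 and 9 of the 10 were called lower, but 84.8% and 91.5% of all genes were too, and the median over all genes was -1.75 and -2.12. Against that shift the 10 genes lay mostly high, with a median of -1.56 and -1.48, and 3 genes in DMSO and 1 in A10i mice were below the median of all genes. Between A10i and DMSO mice this scaling gave log2 fold changes of -0.22 for F13a1 to 0.45 for Cd163 and 0 of 10 calls, with all 10 above the median of -0.35 over all genes (0% of all genes called higher and 0.304% lower by edgeR, and 0 of 10 genes at an unadjusted p under 0.05).

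As a simpler measure, chosen after the values had been seen, the TPM of each gene was divided by that of Adgre1 in the same library. For 6 of the 9 ratios, those of Timd4, Folr2, Cd163, Cbr2, Csf1r and Mertk, every infarcted mouse was below every sham mouse. Adgre1 itself was higher in every infarcted mouse than in every sham mouse, and 63.6% of the other 17460 genes tested lay below in the same way, so the 6 of 9 are near the share over all genes. Timd4 had 0.199 to 0.260 times the TPM of Adgre1 in sham, 0.0275 to 0.153 in DMSO and 0.0320 to 0.103 in A10i mice. Cd163 had ratios of 1.80 to 2.24, 0.480 to 1.14 and 0.488 to 1.56 in the same order. The ratio of Mrc1 overlapped between all groups, at 1.35 to 1.48 in sham, 1.08 to 1.73 in DMSO and 1.09 to 1.97 in A10i mice, as did those of F13a1 and Lyve1 between sham and infarcted mice. For 0 of the 9 genes did the ratio separate A10i from DMSO mice, against 4.75% of all genes.

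**Figure D4:**
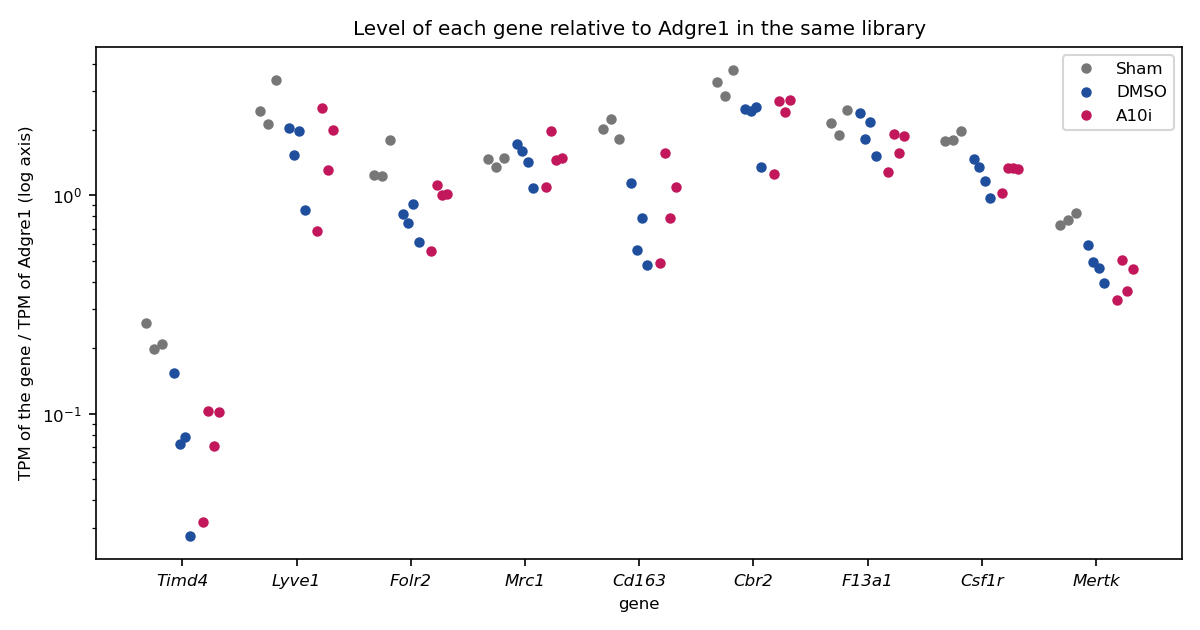
TPM of each gene divided by the TPM of Adgre1 in the same library (vertical axis, logarithmic), for the 3 sham (grey), 4 DMSO (blue) and 4 A10i mice (magenta). For Timd4, Folr2, Cd163, Cbr2, Csf1r and Mertk the sham mice lie above all infarcted mice, as for 63.6% of all genes, and none of the 9 genes separates DMSO from A10i mice.

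A list of 17 further genes of resident and repair macrophages, of which 16 were tested and Cd209g was too low, had 6 higher and 0 lower in DMSO against sham mice, with a median log2 fold change of 0.67. Pf4 (1.88) and Vsig4 (1.62), a complement receptor, were the highest of the 6, and C1qc (0.71) and C1qa (0.77) the lowest. In A10i against sham mice 11 of the 16 were higher and 0 lower, with a median of 1.26, led by Vsig4 (1.96) and Fcrls (1.76), and with Maf (0.84) and Stab1 (0.99) the lowest that passed. Between A10i and DMSO mice 0 of the 16 passed in edgeR, with 8 higher and 1 lower at an unadjusted p under 0.05, and DESeq2 called 2, Fcrls higher and Ccl24 lower. There 13 estimates were above and 3 below 0, of which the widest were Ccl24 (-2.20, edgeR adjusted p = 0.174) and Fcrls (1.33, adjusted p = 0.161).

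The ligands and partners of the 10 genes moved unevenly, with 4 of 10 tested genes higher in DMSO and 5 of 10 in A10i against sham mice, and 0 lower. Hp, which encodes haptoglobin, and Hmox1, which encodes haem oxygenase, lead both lists. Hp had log2 fold changes of 4.59 (edgeR adjusted p = 0.00023) and 5.08 (0.00029) and Hmox1 of 3.96 (0.00036) and 3.58 (0.0015), whereas Cd163 was called higher in neither. Of the TAM receptor system, Tyro3 (1.22 and 1.46) and the ligand gene Pros1 (0.72 and 0.66) rose in both and Axl (0.45) in A10i mice. Gas6 lay at 0.03 and 0.20 (edgeR adjusted p = 0.832 and 0.149). The CSF1R ligands gave -0.24 and -0.24 for Csf1 and -0.51 and 0.02 for Il34, with edgeR adjusted p-values from 0.052 to 0.916. Adam17 had log2 fold changes of -0.04 and 0.13 and Adam10 of 0.30 and 0.39, none past the threshold. Hpx was too low to be tested. Between A10i and DMSO mice 0 of 10 passed in edgeR and in DESeq2, with 1 higher at an unadjusted p under 0.05, and the widest were Il34 (0.53, adjusted p = 0.236) and Hp (0.47, adjusted p = 0.490).

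Other cell types moved with these groups. Of 10 genes of recruited monocytes, 9 rose in DMSO and 8 in A10i against sham mice. Arg1 and Chil3, the highest in DMSO mice, had 0 to 2 and 0 to 1 counts in a sham library and are given as levels, 37.9 to 168 and 21.9 to 98.5 CPM in DMSO and 5.91 to 54.4 and 4.25 to 19.6 CPM in A10i mice. Spp1, next to Chil3 in A10i mice, had 0.337 to 0.524 CPM in sham, 101 to 539 CPM in DMSO and 94.0 to 518 CPM in A10i mice. Vcan (2.04 and 1.82) and Fn1 (2.59 and 2.83) had the lowest log2 fold changes that passed in both. All 7 neutrophil genes tested rose in both comparisons, and their sum was 1.12 to 2.12 CPM in sham, 73.0 to 147 CPM in DMSO and 14.1 to 50.6 CPM in A10i mice. Between A10i and DMSO mice all 7 estimates were below 0, with Il1r2 (-2.68, edgeR adjusted p = 0.093) and Cxcr2 (-2.48, adjusted p = 0.082) the widest. All 7 had an unadjusted p under 0.05, 0 passed in edgeR, and DESeq2 called 5 lower, Csf3r, Cxcr2, Il1r2, S100a8 and S100a9. Lymphatic vessels also express Lyve1. Of 6 lymphatic genes Pdpn alone rose in DMSO (log2 fold change 2.84), and Pdpn (2.22), Ccl21a (0.98) and Flt4 (0.42) rose in A10i against sham mice, whereas Prox1, the defining factor of lymphatic cells and also a gene of heart muscle, lay at -0.35 and -0.19. In DMSO mice Flt4 (0.40), Ccl21a (0.36), Mmrn1 (-0.12) and Reln (-0.09) did not pass, so the rise of Pdpn was not shared by the list. In the A10i mice A117 and A120, where Lyve1 was highest, the sum of the list was 168 and 125 CPM, the highest and the lowest of that group. Prox1 held the largest part of that sum (46.4 to 70.9 CPM in A10i mice), so the sum does not follow lymphatic vessels alone. At an unadjusted p under 0.05 in edgeR, Ccl21a (0.62) and Mmrn1 (0.43) were higher and Pdpn (-0.63) lower in A10i than in DMSO mice. The part of lymphatic vessels in Lyve1 was not tested. Of 8 heart muscle genes 4 fell in DMSO (Myh6 by 1.19, Ckm by 1.17, Pln by 0.68 and Ryr2 by 0.62 on the log2 scale) and 2 in A10i mice (Ckm by 0.80 and Myh6 by 0.79), and their sum was 76820 to 78030 CPM in sham, 36177 to 53239 CPM in DMSO and 44050 to 59888 CPM in A10i mice. Of 7 fibroblast genes 4 rose in DMSO (Col1a1 2.85, Postn 2.65, Col3a1 2.42 and Col1a2 2.12) and 6 in A10i mice (Postn 3.63 and Col1a1 3.63 the highest, Pdgfra 0.43 and Dcn 0.58 the lowest). Of 5 blood vessel genes Tie1 (-0.54) and Kdr (-0.35) fell in DMSO and Tie1 (-0.32) in A10i mice. Between A10i and DMSO mice 0 genes of these lists passed in edgeR. Over all 9 lists beside the 10 genes, 15 of 77 tested genes were higher and 13 lower at an unadjusted p under 0.05, and DESeq2 called 8, the 7 named so far and Kdr. The widest estimates there were Ms4a7 (0.83) and Aif1 (0.45) among the general macrophage genes, Chil3 (-2.03) and Arg1 (-1.78) among the monocyte genes, and Pdpn (-0.63) and Ccl21a (0.62) among the lymphatic genes. Those of the muscle genes were Myh6 (0.39) and Ckm (0.36), of the fibroblast genes Postn (0.98) and Col1a1 (0.78), and of the vessel genes Kdr (0.56) and Tie1 (0.22), with adjusted p-values of 0.0949 or above for all 12. The part of these cell types in the values of the 10 genes was not tested.

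**Figure D5:**
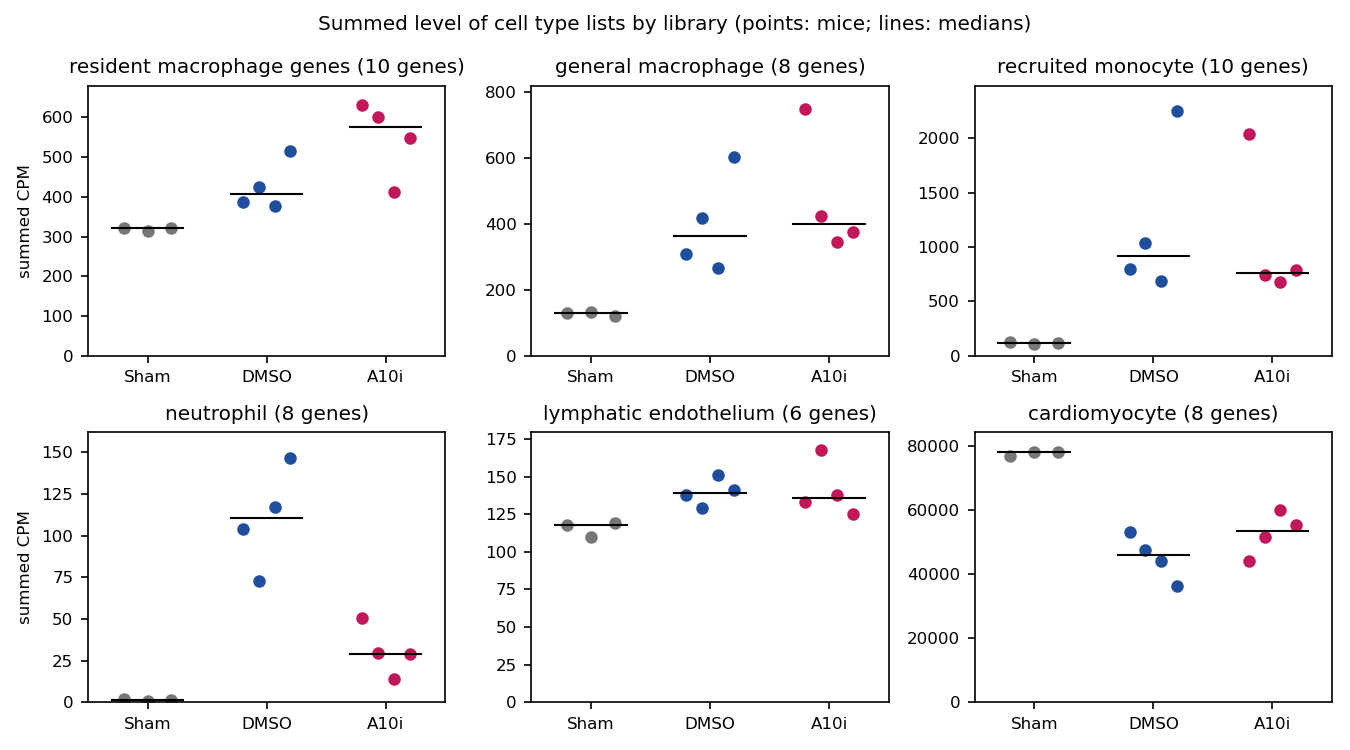
Summed CPM (vertical axes, from 0) of the 10 resident macrophage genes and of 5 lists of cell type genes in each of the 11 mice; points are mice and lines medians. A116 and A129 are highest for the general macrophage and monocyte lists, and the neutrophil list separates all 3 groups.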

How the data were processed

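Poly(A) RNA of 11 hearts was made into strand-specific libraries and sequenced as read pairs. The authors mapped the reads to mm10 with GSNAP, and featureCounts 2.0.1 assigned those with a unique place to Ensembl genes. The deposited values are raw counts without normalization. The strand setting of the counting is not given in the sources used here. The 92 spike-in rows (14 to 55 counts per library) were left out. Symbols came from GENCODE M21, and positions and exon lengths came with the deposited counts.

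The 10 genes and the lists were chosen with earlier results of these data known. Each pair of groups was fitted alone in edgeR 4.0.16 (R 4.3.3) with filterByExpr, TMM, robust quasi-likelihood testing (F-test, two-sided) and Benjamini-Hochberg adjustment, threshold 0.01. CPM used TMM-scaled library sizes, and TPM divided by summed exon length. A second fit scaled libraries to the geometric mean of the 8 general macrophage genes. Of other lists, the 2 highest and 2 lowest genes past the threshold were named, or, where none passed, the 2 widest, and genes near 0 counts in sham mice were given as levels. Gas6, Csf1, Il34, Adam17, Adam10 and Prox1 were added for their role. DESeq2 1.42.0, other scalings and filters, a joint fit of the 11 libraries, the threshold 0.05 and leaving out each library were the alternatives. The fit was tested on simulated data. Mice are the replicates, and spread between replicates of a group exceeded counting error in all 15 pairs (chi-square per degree of freedom 4.04 to 60.8).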

Additional observations from a re-analysis of the deposited data

Results flagged for a closer look

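Over 38 groups of 4 mice (levels of the 10 genes and summed lists), 3 held a mouse far from the other 3 by Dixon's test, where chance gives about 1 in 20 groups. F13a1 reached 148 CPM in DMSO mouse A129, against 107 to 109 CPM in the other DMSO mice. Adgre1 reached 61.1 CPM in A10i mouse A116, against 29.4 to 34.1 CPM. The summed CPM of the recruited monocyte genes, of which Fn1 was a large part, was 2038 in A116, against 676 to 786 in the other A10i mice.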

How the results depend on the processing

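The count of genes higher or lower in DMSO against sham mice, 2 as reported, was 4 at an adjusted p under 0.05 and 4 with DESeq2 (Cd163 and Adgre1 added), and 1 to 4 when each mouse was left out. Of all 17117 genes, 3687 were higher and 3145 lower at 0.05. With a mouse left out, 922 to 2288 of all genes were higher and 565 to 1763 lower at 0.01. In A10i against sham mice the 6 became 2 to 7 with a mouse left out and 4 without a filter on low counts, where F13a1 (adjusted p = 0.0120) and Adgre1 (0.0342) did not pass. Over all genes, 1062 to 2544 were higher and 543 to 1821 lower with a mouse left out. Without a filter, 2517 of 30645 genes were higher and 1888 lower. In A10i against DMSO mice the count was 0 under every alternative run. Scaled to the general macrophage genes, the counts against sham lay between 7 and 10. Most of all genes were called lower there too. With a mouse left out, these were 12745 to 15042 genes in DMSO and 14909 to 15644 in A10i mice. With a mouse left out, the log2 fold change of Folr2 in DMSO against sham mice lay between -0.094 and 0.17 and that of Cd163 in A10i against sham mice between -0.060 and 0.32. Of 430 values of single genes under alternatives, 402 kept direction and side of the threshold, 15 lost and 9 gained a call, and 4 turned sign. Over all genes, A10i against DMSO gave 0 calls as reported, 43 (18 higher, 25 lower) without a filter, 231 with DESeq2 (106 higher, 125 lower) and 11 in the fit of all 11 libraries. Counts of 22 to 64 limit Timd4, and 3 sham mice limit every comparison with them. No paired analysis was possible because the replicate names are shared by no groups.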
